A study of Mus musculus with 6 samples.

Results

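The Notch pathway was examined in the lungs of mouse embryos with (Igf1+/+) and without (Igf1-/-) a working Igf1 gene, taken at embryonic day 18.5, through 10 of its genes, which are the receptors Notch1, Notch2, Notch3 and Notch4, the ligands Jag1, Jag2, Dll1 and Dll4, and the targets Hes1 and Hey1. The genes were chosen by name, out of the 12393 genes named on the array, and every probe set annotated with 1 of these symbols alone was taken, which gave 17 of 22626 mouse probe sets. RNA from whole lungs was hybridized to Affymetrix 3' expression arrays, with 3 arrays per genotype. By the study's methods, pups of this age were delivered by caesarean section and assisted in breathing for a time before their lungs were taken. The Igf1-/- embryos were homozygous for a constitutive null allele of Igf1, the insulin-like growth factor 1 gene, and came with their Igf1+/+ controls from matings between heterozygous mice of the C57BL/6J background, so the gene was disrupted in every cell of the embryo and each mother carried 1 null allele herself. The 3 lung RNAs of each genotype came from separate mice and were labelled separately by the methods description, while the sample descriptions also speak of pooling lungs. The p-values measure the spread between these arrays. No test of difference placed any of the 17 probe sets past the threshold, and the values below show how closely each was bounded.

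Values were on the log2 scale, where a step of 1 is a doubling, and ran from 3.10 to 14.6 with array medians of 6.85 to 6.89. Correlations between arrays across all probe sets were 0.992 to 0.996. Igf1+/+ replicate 3 stood apart in its spread, with the lowest array weight (0.513), and bears on the calls as given below. Sftpc, which encodes the surfactant protein C of alveolar type II cells, lay at 14.4 to 14.5 on all 6 arrays. The brightest Igf1 probe set gave 8.87, 8.99 and 9.38 in Igf1-/- lungs and 9.28, 9.85 and 9.65 in Igf1+/+ lungs, so the groups overlapped, and the log2 fold change was -0.51 (SE 0.17, adjusted p = 0.267). A dimmer Igf1 probe set gave 6.15, 6.33 and 6.46 in Igf1-/- lungs and 6.59, 7.12 and 6.97 in Igf1+/+ lungs with no overlap, at -0.58 (SE 0.14, adjusted p = 0.152). The remaining Igf1 probe set, between these in brightness, overlapped between the genotypes, at -0.42 (SE 0.16, adjusted p = 0.327). The Igf1 transcript was therefore lower in the direction of the labels without passing the test, and which part of the transcript the null allele leaves in place was not examined here. Differences are given as Igf1-/- minus Igf1+/+, and the words rose and fell are kept for probe sets with a p-value, adjusted over the whole array, under 0.10. By that rule 126 probe sets changed, or 0.557% of all, of which 37 rose and 89 fell, and the count was 710 without Igf1+/+ replicate 3 and 45 to 63 with any 1 of the other arrays left out.

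Notch receptors are single-pass membrane proteins that are cleaved when a ligand on a neighbouring cell pulls on them, and the freed intracellular domain enters the nucleus, joins the DNA-binding protein RBPJ and a Mastermind coactivator, and turns on basic helix-loop-helix repressors of the Hes and Hey families. In the developing lung, Notch signaling directs airway progenitors toward the secretory club cell fate and away from the ciliated and neuroendocrine fates. In blood vessels it separates tip from stalk endothelial cells, sets arterial identity, and recruits and matures pericytes and smooth muscle through Notch3.

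The DNA words through which the pathway acts can be read in the promoters of its genes, and 4 stretches that carry paired or single sites are shown because they hold both ends of the cascade, from RBPJ to the repressors it induces. Windows of 300 bases, from 250 before to 50 after the start of each transcript, were taken from RefSeq on GRCm38.p6 and matched 8 of the 10 genes (not Hes1 and Hey1) and 41 of 55 further pathway genes. The core word of RBPJ, GTGGGAA, was searched on both strands. The same was done for 3 words that Hes and Hey proteins bind. The E-box word was the palindrome CACGTG. Class C sites were searched as CACGCG, and the looser N-box as CACNAG, where N is any base. GTGGGAA occurred in 6.38% of all 32851 windows and in 8 of the 54 windows of the 41 matched further pathway genes. It occurred in none of the 9 windows of the 8 receptor and ligand genes. Only 33 windows in all (0.101%) held it on both strands, and the targets Hes5 and Hey2 were among them. Capitals mark GTGGGAA or its reverse complement in the Hes5 stretch (chr4:154960677-154960866, plus strand) and the Hey2 stretch (chr10:30842781-30843010, minus strand), read 5′ to 3′ along the gene.
Hes5: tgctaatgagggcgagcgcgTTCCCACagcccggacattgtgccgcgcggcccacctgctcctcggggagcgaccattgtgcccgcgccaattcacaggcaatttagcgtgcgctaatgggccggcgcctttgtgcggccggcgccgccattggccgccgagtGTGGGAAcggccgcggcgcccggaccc
Hey2: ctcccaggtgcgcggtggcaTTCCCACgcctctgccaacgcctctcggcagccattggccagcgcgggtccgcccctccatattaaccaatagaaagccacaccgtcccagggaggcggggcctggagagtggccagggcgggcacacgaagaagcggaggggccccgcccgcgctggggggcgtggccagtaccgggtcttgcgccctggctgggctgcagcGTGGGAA

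In Hes5 the words began 226 and 83 bases before the start, and in Hey2 they began 207 and 4 bases before it. CACGCG, with its reverse complement CGCGTG, was found in 9.27% of all windows. It was found in 5 of the 9 windows of the 8 matched genes, those of Jag1, Jag2, Dll1, Dll4 and Notch2. At least 2 copies were held by 1.67% of all windows, Jag1 being the single receptor or ligand gene with 2. CACGTG occurred in none of these 9 windows against 7.15% of all windows, and CACNAG, a short and frequent word, in 5 of the 9 against 42.5%. Capitals mark CACGCG or its reverse complement in the Jag1 stretch (chr2:137116666-137116770, minus strand), with words 249 and 171 bases before the start, and in the Dll4 stretch (chr2:119325569-119325614, plus strand), with a word 195 bases before the start. A match describes these letters in these windows only.
Jag1: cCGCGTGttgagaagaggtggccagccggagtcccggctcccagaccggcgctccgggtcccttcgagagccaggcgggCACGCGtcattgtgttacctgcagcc
Dll4: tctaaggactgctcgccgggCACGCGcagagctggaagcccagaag

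The 17 probe sets of receptors, ligands and targets were nearly level between the genotypes. None rose and none fell by limma (0 of 17, against 0.557% of all probe sets, and 0 also without Igf1+/+ replicate 3), and 1 was higher and 1 lower at an unadjusted p under 0.05, against 12.5% of all probe sets in either direction. At the wider limit of adjusted p under 0.20, which 2.60% of all probe sets passed, the count was again 0, and the lowest adjusted p was 0.365. The median log2 fold change was 0.02, the median over all probe sets being 0.03. In Igf1-/- lungs 12 probe sets were higher and 5 lower, where 58.2% of all probe sets were higher. The median absolute log2 fold change was 0.03, against 0.09 over all probe sets, while the median SD between arrays of a genotype was 0.118 against 0.110. The measured folds ran from 1.00 to 1.15, and the 95% interval of each of the 17 probe sets stayed under 1.5-fold in either direction, 15 of them under 1.3-fold. These intervals bound differences in array values and not in transcript amounts. Of the 17 probe sets, 5 were below the median brightness, where weak signal can also keep a difference small. At the median SE of these probe sets, 0.09, a fold of 1.41 would have been needed to pass the test. In whole lung RNA, fewer cells of a type and less RNA per cell cannot be told apart.

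**Figure D1:**
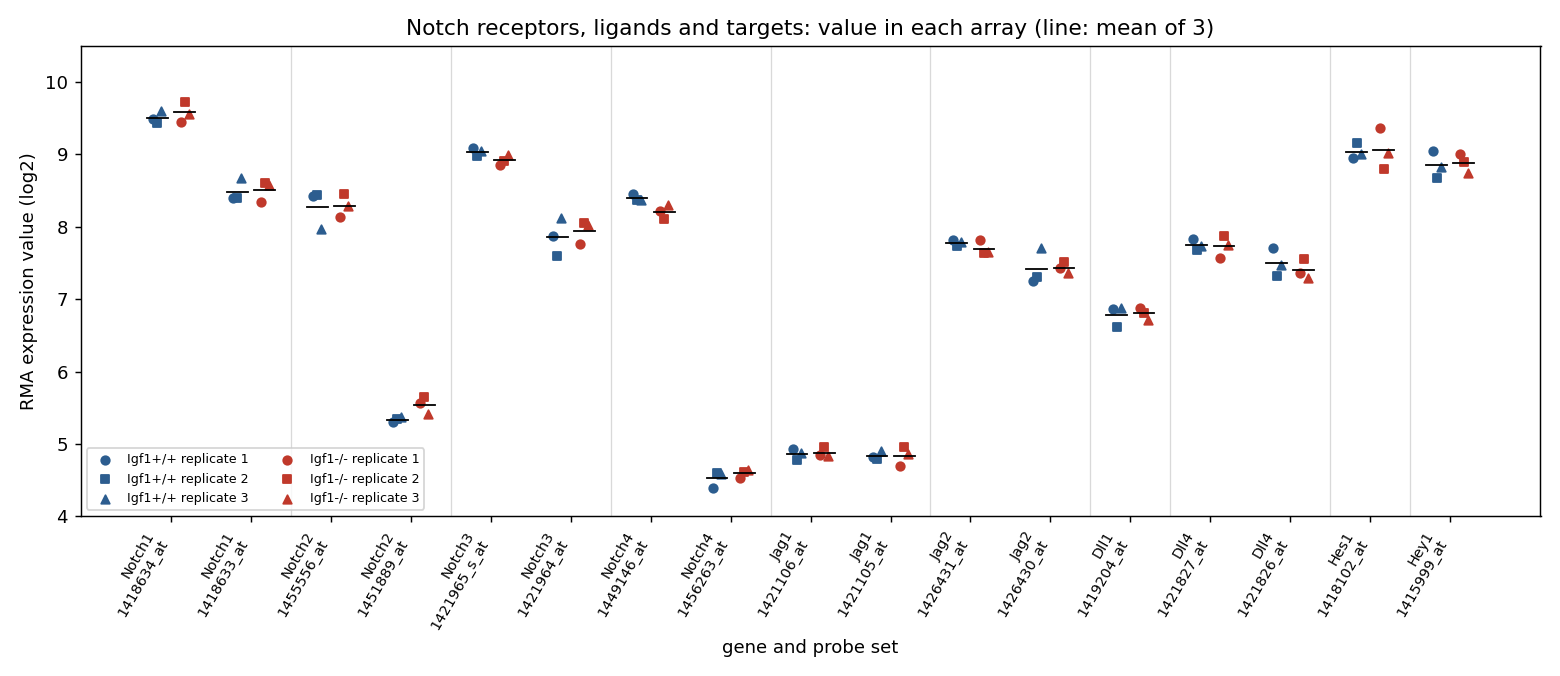
Log2 value of each of the 17 probe sets of the 10 Notch genes on each of the 6 arrays, with blue for Igf1+/+ and red for Igf1-/- lungs. The genotypes overlap for 15 probe sets and are apart for the dim Notch2 probe set (Igf1-/- above) and the bright Notch4 probe set (Igf1-/- below).

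Among the receptors, 6 of 8 probe sets were higher and 2 lower in Igf1-/- lungs, with log2 fold changes from -0.19 to 0.21. Notch1, the receptor used in endothelium and in airway progenitors, gave 9.45, 9.73 and 9.56 in Igf1-/- lungs and 9.49, 9.43 and 9.60 in Igf1+/+ lungs at its brighter probe set (1418634_at). The arrays interleaved, with Igf1-/- replicate 2 the highest and Igf1+/+ replicate 2 the lowest (log2 fold change 0.07, SE 0.09, 95% interval -0.14 to 0.28, adjusted p = 0.779). Its other probe set (1418633_at) gave 8.35, 8.60 and 8.58 in Igf1-/- lungs and 8.40, 8.40 and 8.67 in Igf1+/+ lungs, where the highest value was that of an Igf1+/+ lung and the difference was 0.02 (SE 0.11, adjusted p = 0.944).

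Notch2, a receptor of epithelium and mesenchyme in the lung, is read by a bright and a dim probe set that gave different pictures. The bright one (1455556_at) gave 8.14, 8.46 and 8.29 in Igf1-/- lungs and 8.42, 8.43 and 7.97 in Igf1+/+ lungs. Igf1+/+ replicate 3 lay lowest of the 6 and the other Igf1+/+ lungs lay inside the Igf1-/- range (log2 fold change 0.02, SE 0.14, 95% interval -0.29 to 0.33, adjusted p = 0.966). The dim one (1451889_at) gave 5.56, 5.65 and 5.41 in Igf1-/- lungs and 5.30, 5.34 and 5.37 in Igf1+/+ lungs. Here every Igf1-/- lung lay above every Igf1+/+ lung, by a gap of 0.04, which was the case for 10.8% of all probe sets. The level was 5.54 ± 0.12 against 5.34 ± 0.04 (mean ± SD, n = 3 per genotype) and the log2 fold change 0.21 (SE 0.08, adjusted p = 0.365), at a brightness that 31.5% of probe sets fall below, and without Igf1+/+ replicate 3 it was 0.23 (adjusted p = 0.243).

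Notch3, the receptor of pericytes and vascular smooth muscle, gave 8.85, 8.91 and 8.99 in Igf1-/- lungs and 9.09, 8.98 and 9.05 in Igf1+/+ lungs at its brighter probe set (1421965_s_at, whose suffix marks probes that can match more than 1 transcript). Igf1-/- replicate 3 reached above the lowest Igf1+/+ lung, so the groups overlapped (log2 fold change -0.12, SE 0.08, 95% interval -0.29 to 0.05, adjusted p = 0.535). The other Notch3 probe set (1421964_at) gave 7.76, 8.06 and 8.03 in Igf1-/- lungs and 7.87, 7.59 and 8.12 in Igf1+/+ lungs, with the lowest and the highest value both in Igf1+/+ lungs and a difference of the other sign, 0.09 (SE 0.14, adjusted p = 0.828).

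Notch4, a receptor largely restricted to endothelium, had the most negative difference of the receptors. Its bright probe set (1449146_at) gave 8.23, 8.11 and 8.30 in Igf1-/- lungs and 8.46, 8.37 and 8.38 in Igf1+/+ lungs. All Igf1-/- lungs lay below all Igf1+/+ lungs, by a gap of 0.07, a separation in that direction seen in 7.26% of all probe sets. The level was 8.21 ± 0.10 against 8.40 ± 0.05 (mean ± SD, n = 3 per genotype), or 1.14-fold lower, and did not pass the test (log2 fold change -0.19, SE 0.08, 95% interval -0.37 to -0.01, adjusted p = 0.376), nor did it without Igf1+/+ replicate 3 (-0.20, adjusted p = 0.263). The exact two-sided permutation test of 3 arrays against 3 cannot give a p under 0.1, and it gives that value for any separated probe set. The second Notch4 probe set (1456263_at) was dim and gave 4.52, 4.62 and 4.64 in Igf1-/- lungs and 4.39, 4.60 and 4.59 in Igf1+/+ lungs, with overlapping groups and a difference of 0.07 (SE 0.09, adjusted p = 0.767).

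Endothelial genes lay mostly on the same side as the bright Notch4 probe set. Of 15 endothelial genes read at their brightest probe set, 11 were lower and 4 higher, none rose or fell, and their mean log2 value was 9.29 to 9.43 in Igf1-/- lungs and 9.36 to 9.54 in Igf1+/+ lungs. The 3 largest differences were those of Kdr, the main VEGF receptor (-0.26, adjusted p = 0.267), Vwf, the von Willebrand factor gene (-0.25, adjusted p = 0.376), and Cdh5, which encodes VE-cadherin (-0.24, adjusted p = 0.319). Of 7 arterial genes 5 were lower and 2 higher, and none passed the test, with list means of 7.85 to 8.0 against 7.95 to 8.11. The largest differences there were those of Acvrl1, the endothelial receptor ALK1 (-0.29, adjusted p = 0.375), Nrp1, the VEGF coreceptor neuropilin (-0.29, adjusted p = 0.311), and Cxcr4, a chemokine receptor (0.14, adjusted p = 0.634). The part of endothelial RNA content in the Notch4 values was not tested. Among 10431 bright probe sets of other genes, those whose array-by-array pattern lay nearest to that of Notch4 were Nat2, Krr1 and Ube2e3. Their root mean square differences were 0.0224, 0.0240 and 0.0262 over the 6 arrays, where the Notch4 values themselves deviated by 0.114 from their mean. With 10431 candidates and 6 arrays some near matches are found in any case. Whether these genes share anything with Notch4 was not tested.

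The ligands were close to level. Of their 7 probe sets 4 were higher and 3 lower, all 7 overlapped, and the log2 fold changes ran from -0.10 to 0.02. Jag1, a ligand of smooth muscle, endothelium and airway epithelium, was read by 2 dim probe sets. The first (1421106_at) gave 4.85, 4.96 and 4.83 in Igf1-/- lungs and 4.94, 4.78 and 4.87 in Igf1+/+ lungs, with each group's range of about the same place and width (log2 fold change 0.02, SE 0.08, 95% interval -0.16 to 0.19, adjusted p = 0.948). The second (1421105_at) gave 4.70, 4.95 and 4.86 in Igf1-/- lungs and 4.82, 4.79 and 4.90 in Igf1+/+ lungs, and the Igf1+/+ values lay within the Igf1-/- range, at 0.00 (SE 0.09, adjusted p = 0.994). Both Jag1 probe sets were dimmer than more than 3 in 4 of all probe sets, the first being brighter than 24.1% and the second brighter than 23.5%.

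Jag2, a second Jagged ligand, which is made by basal and other airway epithelial cells, gave 7.82, 7.63 and 7.65 in Igf1-/- lungs and 7.82, 7.73 and 7.79 in Igf1+/+ lungs at its brighter probe set (1426431_at). The top values of both genotypes coincided, while the lowest 2 were Igf1-/- lungs (log2 fold change -0.08, SE 0.08, 95% interval -0.26 to 0.10, adjusted p = 0.696). At the other (1426430_at) the values were 7.43, 7.51 and 7.37 in Igf1-/- lungs and 7.25, 7.31 and 7.71 in Igf1+/+ lungs, the 3 Igf1-/- lungs lying inside the Igf1+/+ range, with a difference of 0.01 (SE 0.12, adjusted p = 0.975).

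Dll1, a Delta ligand of neuroendocrine and other signal-sending cells, had a single probe set (1419204_at) just under the median brightness, which gave 6.88, 6.81 and 6.72 in Igf1-/- lungs and 6.86, 6.62 and 6.88 in Igf1+/+ lungs. Igf1+/+ replicate 2 was lowest and the other arrays of both genotypes lay close together above it (log2 fold change 0.02, SE 0.09, 95% interval -0.19 to 0.23, adjusted p = 0.948). Dll4, the ligand of tip cells and arterial endothelium, gave 7.56, 7.88 and 7.75 in Igf1-/- lungs and 7.83, 7.67 and 7.74 in Igf1+/+ lungs at the brighter of its probe sets (1421827_at). Both the lowest and the highest value came from Igf1-/- lungs (log2 fold change -0.02, SE 0.10, 95% interval -0.23 to 0.20, adjusted p = 0.960). Its other probe set (1421826_at) gave 7.36, 7.55 and 7.29 in Igf1-/- lungs and 7.71, 7.33 and 7.48 in Igf1+/+ lungs, Igf1+/+ replicate 1 standing highest, with a difference of -0.10 (SE 0.11, adjusted p = 0.734).

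The 2 targets are genes that Notch can induce, and both were bright and level, while Notch activity itself was not measured. Hes1, the repressor that Notch induces in airway progenitors, gave 9.37, 8.80 and 9.03 in Igf1-/- lungs and 8.95, 9.16 and 9.01 in Igf1+/+ lungs (1418102_at). The Igf1-/- lungs held both the highest and the lowest value, so their spread enclosed the controls, with 9.07 ± 0.29 against 9.04 ± 0.11 (mean ± SD, n = 3 per genotype). The difference was close to 0 (log2 fold change 0.03, SE 0.14, 95% interval -0.28 to 0.34, adjusted p = 0.948). Hey1, a Notch target of arterial endothelium, gave 9.01, 8.89 and 8.75 in Igf1-/- lungs and 9.05, 8.68 and 8.83 in Igf1+/+ lungs (1415999_at). The highest and the lowest array were both Igf1+/+ (log2 fold change 0.03, SE 0.11, 95% interval -0.22 to 0.28, adjusted p = 0.930). Differences in array value beyond 1.26-fold for Hes1 or 1.22-fold for Hey1, in either direction, lay outside the 95% intervals.

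**Figure D2:**
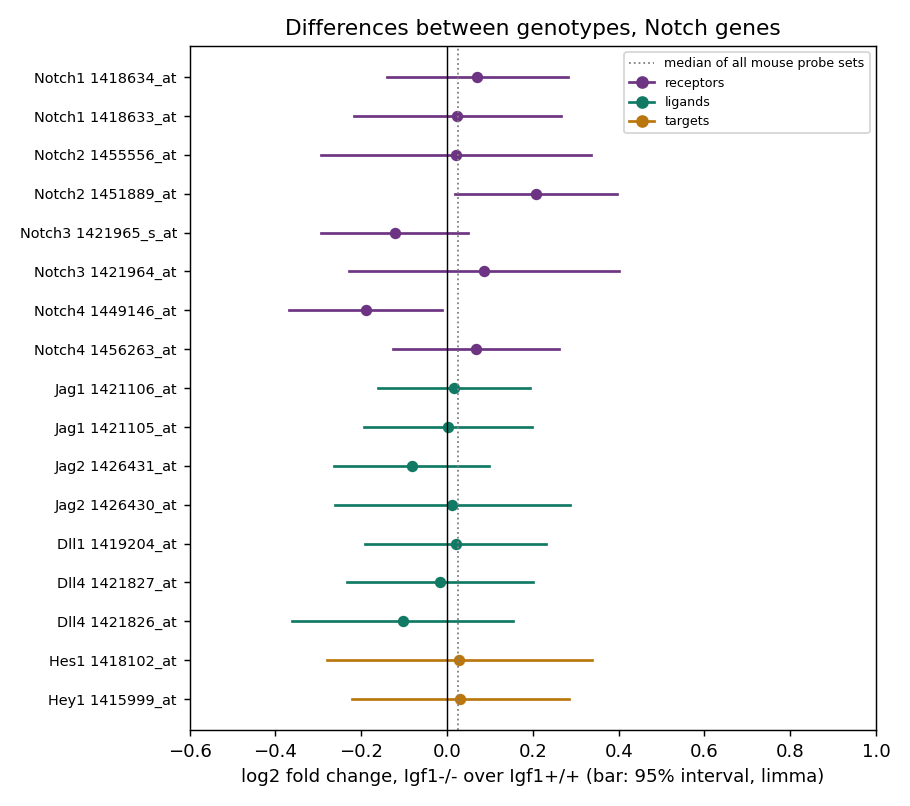
Log2 fold change, Igf1-/- over Igf1+/+, with its 95% interval for each of the 17 probe sets, ordered by role. The intervals of 15 probe sets cross 0, and those of the dim Notch2 (0.02 to 0.40) and bright Notch4 (-0.37 to -0.01) probe sets leave it out without passing the adjusted threshold.

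Of the 7 genes with 2 probe sets, 4 had both on the same side of 0, and Notch3, Notch4 and Jag2 had one on each side. The 5 probe sets below the median brightness (6.88) were the dim ones of Notch2 and Notch4, both of Jag1, and that of Dll1. Read at the brightest probe set of each gene, 6 genes were higher and 4 lower, and Notch4 was the 1 gene with an unadjusted p under 0.05. The arrays were not ranked alike by these probe sets. Igf1-/- replicate 2 was the highest array in 6 of 17, and Igf1+/+ replicate 2 was the lowest in 5 and the highest in 0.

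The rest of the pathway was followed in 55 further genes, of which 46 had probe sets, 76 in all. None rose or fell by limma, 6 were higher and 2 lower at an unadjusted p under 0.05 (8 of 76, background 12.5%), and 3 passed the wider limit of 0.20, all higher (background 2.60%). The median log2 fold change was 0.02, with 46 probe sets higher and 30 lower (58.2% of all probe sets were higher). All Igf1-/- lungs lay above all Igf1+/+ lungs in 9 (background 10.8%) and below in 3 (background 7.26%).

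**Figure D3:**
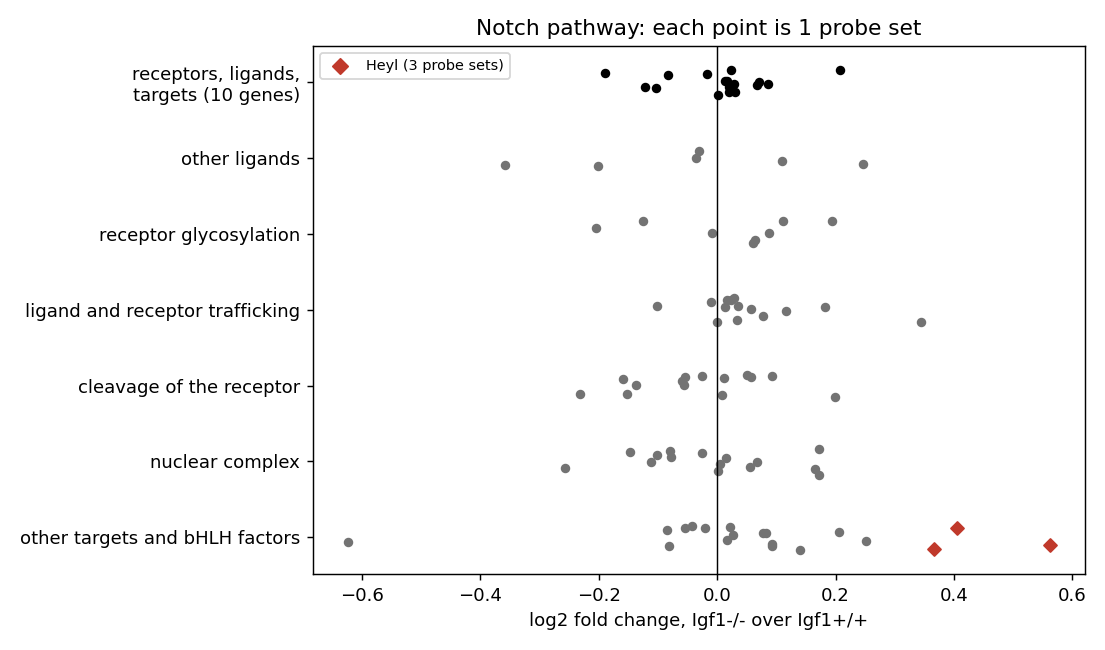
Log2 fold change, Igf1-/- over Igf1+/+, of each probe set of the 10 Notch genes and of 46 further pathway genes, by role, with Heyl as red diamonds. No point passes the adjusted threshold, and the 3 Heyl points, at 0.37, 0.40 and 0.56, are the 3 highest of all.

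Heyl, a Hey family repressor that Notch3 induces in vascular smooth muscle, had the largest difference of the pathway at a brightest probe set. Its brightest probe set (1419302_at) gave 7.37, 7.58 and 7.69 in Igf1-/- lungs and 6.67, 6.98 and 7.30 in Igf1+/+ lungs. Every Igf1-/- lung lay above every Igf1+/+ lung, by 0.07, and the level was 7.54 ± 0.16 against 6.98 ± 0.31 (mean ± SD, n = 3 per genotype), or 1.48-fold higher, without passing the test (log2 fold change 0.56, SE 0.15, 95% interval 0.22 to 0.91, adjusted p = 0.197). The second probe set (1438886_at) gave 7.26, 7.24 and 7.42 in Igf1-/- lungs and 6.78, 6.87 and 7.05 in Igf1+/+ lungs, with a wider gap of 0.19 between the groups and a fold of 1.32 (log2 fold change 0.40, SE 0.09, 95% interval 0.19 to 0.62, adjusted p = 0.143). The third (1419303_at) gave 6.33, 6.19 and 6.62 in Igf1-/- lungs and 5.78, 5.95 and 6.30 in Igf1+/+ lungs, with overlapping groups, at 0.37 (SE 0.15, adjusted p = 0.372). All 3 Heyl probe sets were thus higher in Igf1-/- lungs, 2 of them with adjusted p under 0.20, and a replicate 3 array was the highest of its genotype at each of the 3. They share the same RNA and are not independent. The 2 separated Heyl probe sets passed the test without Igf1+/+ replicate 3 (adjusted p = 0.0514 and 0.0589), when array weights were used (adjusted p = 0.0781 and 0.0535), and the brightest also with the replicate number as a block (adjusted p = 0.0912). With any 1 of the other 5 arrays left out, the adjusted p of these 2 probe sets was 0.251 to 0.478.

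Of 10 pericyte and smooth muscle genes 8 were lower and 2 higher, none passed the test, and the list mean was 8.63 to 8.86 in Igf1-/- and 8.78 to 8.87 in Igf1+/+ lungs. The 3 largest differences on that list were those of Myh11, the smooth muscle myosin heavy chain (-0.24, adjusted p = 0.398), Rgs5, a pericyte marker (-0.20, adjusted p = 0.591), and Tagln, which encodes transgelin (-0.17, adjusted p = 0.564). Notch3 was -0.12 and 0.09 at its probe sets. The part of smooth muscle content in the Heyl values was not tested.

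**Figure D4:**
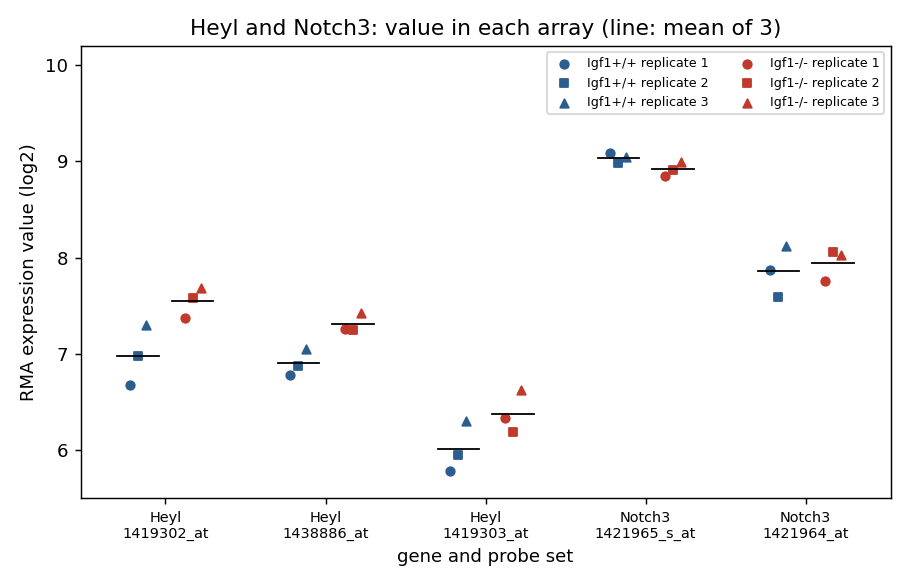
Log2 values of the Heyl and Notch3 probe sets on the 3 Igf1+/+ and the 3 Igf1-/- arrays. The Igf1-/- points lie above the Igf1+/+ points at 2 of the 3 Heyl probe sets and mix with them at both Notch3 probe sets.

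The other targets and related factors differed less than Heyl at their brightest probe sets, and a dim Id2 probe set with a wide spread between arrays was lower by more (-0.62, SE 0.35, adjusted p = 0.491). Hes5, a repressor of neural and neuroendocrine precursors whose paired RBPJ words are printed above, gave log2 fold changes of -0.04 (SE 0.15, adjusted p = 0.925) and -0.05 (SE 0.07, adjusted p = 0.782). Hey2, an arterial repressor with paired words of its own, was near the bottom of the scale (3.88 against 3.96) with a difference of -0.08 (SE 0.08, adjusted p = 0.700). Nrarp, a feedback inhibitor induced by Notch in endothelium, was at -0.08 (SE 0.07, adjusted p = 0.667) and 0.02 (SE 0.10, adjusted p = 0.962). Id3, an inhibitor of helix-loop-helix factors and mainly a target of BMP signaling, was at 0.21 (SE 0.10, adjusted p = 0.431), the third largest difference at a brightest probe set after Heyl and Dner. In all, 13 of the 19 probe sets of these 12 genes were higher and 6 lower.

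No gene that acts upstream of the targets passed the test, and their log2 fold changes ran from -0.36 to 0.34. Rbpj, the DNA-binding partner of the receptors, was at 0.01 (SE 0.08, adjusted p = 0.956) and -0.03 (SE 0.11, adjusted p = 0.942). In the nuclear complex, 8 of 15 probe sets were higher and 7 lower, with Maml1, the Mastermind coactivator, at -0.15 (SE 0.10, adjusted p = 0.591) and 0.06 (SE 0.13, adjusted p = 0.886). For cleavage of the receptor, 6 of 14 were higher and 8 lower, and the sheddase Adam10 was at -0.14 (SE 0.08, adjusted p = 0.522) at its brightest probe set. Aph1a, a subunit of gamma-secretase, named after its values were seen, was lower without overlap at its second probe set, -0.23 (SE 0.08, adjusted p = 0.316), and at 0.01 and 0.06 at the others. The fringe glycosyltransferases, which tune the response of receptors to Delta and Jagged ligands, were higher for Lfng at 0.11 (SE 0.11, adjusted p = 0.701) and lower for Mfng at -0.20 (SE 0.09, adjusted p = 0.412), neither of them past the test. Of the 6 probe sets of further ligands, 2 were higher and 4 lower. The largest difference was that of Dlk2, a noncanonical ligand-like membrane protein named after its values were seen, at -0.36 (SE 0.13, adjusted p = 0.310) and, at its brighter probe set, -0.20 (SE 0.11, adjusted p = 0.479), both with overlapping groups. Dner, another noncanonical ligand, gave 0.25 (SE 0.09, adjusted p = 0.324) at a dim probe set with no overlap between the groups and -0.04 (SE 0.09, adjusted p = 0.892) at the other. Among the 9 genes of ligand and receptor trafficking, 12 of 14 probe sets were higher and 2 lower, most by very little (median 0.03). The largest difference was at a dim probe set of Neurl1a, an E3 ubiquitin ligase homologous to fly Neuralized, named here after its values were seen. That dim probe set (1460343_at) gave 5.89, 5.98 and 6.02 in Igf1-/- lungs and 5.58, 5.58 and 5.71 in Igf1+/+ lungs, a separation with log2 fold change 0.34, SE 0.08, 95% interval 0.17 to 0.52, adjusted p = 0.137, while its 3 other probe sets were at 0.12, 0.02 and -0.10. It passed the test without Igf1+/+ replicate 3 (adjusted p = 0.0779) and with array weights (adjusted p = 0.0598).

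Airway cell types that depend on Notch during development were read from marker genes at their brightest probe sets. Like the other lists, these were chosen with earlier results of these data known. Of 8 ciliated cell genes 6 were higher and 2 lower, 1 rose (0.557% of all probe sets rose or fell), and the list mean was 7.22 to 7.29 in Igf1-/- lungs and 6.91 to 7.09 in Igf1+/+ lungs, without overlap. The gene that rose was Foxn4, a transcription factor known in frogs for multiciliated cell differentiation (0.52, adjusted p = 0.0649), and the next largest were Tekt1 (0.49, adjusted p = 0.202), which encodes a protein of ciliary microtubules, and Rsph1 (0.46, adjusted p = 0.248), which encodes a radial spoke protein. Of 8 club cell genes 6 were higher and 2 lower, and the list means overlapped (10.4 to 10.7 against 10.3 to 10.6). Upk3a, a uroplakin gene, rose (0.86, adjusted p = 0.0179) and Scgb3a1, a secretoglobin, fell (-1.40, adjusted p = 0.0161). The study had already reported both genes as changed in these directions on these arrays. Cyp2f2, a cytochrome of club cells, was at 0.51, adjusted p = 0.106. The club cell secretory protein gene Scgb1a1 was lower (-0.26, adjusted p = 0.601), and Scgb3a2, another secretoglobin, was higher (0.21, adjusted p = 0.370). Of 8 neuroendocrine genes 5 were higher and 3 lower with none past the test, and the list mean was 5.78 to 5.89 against 5.66 to 5.76, values below the median brightness of the array. The largest were Uchl1, a ubiquitin hydrolase (0.30, adjusted p = 0.531), Pcsk1, a prohormone convertase (0.28, adjusted p = 0.183), and Syp, which encodes synaptophysin (0.16, adjusted p = 0.565). The neuroendocrine list also held Dlk1, counted above among the further ligands, at 12.4 to 12.6 in Igf1-/- and 12.1 to 12.7 in Igf1+/+ lungs. Dlk1 was far brighter than the rest of that list and weighs on its mean. The separation of the list means therefore cannot be read as a difference in neuroendocrine markers. General lung epithelial genes lay on the same side as the airway lists, with 7 of 9 higher and 2 lower, none past the test, a median log2 fold change of 0.22, and list means of 10.7 to 10.9 against 10.6 to 10.8. Of these, Epcam, an epithelial adhesion molecule, was at 0.33, adjusted p = 0.303, and the surfactant proteins split, with Sftpb at 0.30, adjusted p = 0.363 and Sftpd at -0.42, adjusted p = 0.288. The part of epithelial content in the airway lists was not tested. Beside these lists, Hes1 was at 0.03, Jag2 at -0.08 and Dll1 at 0.02 at their brightest probe sets.

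**Figure D5:**
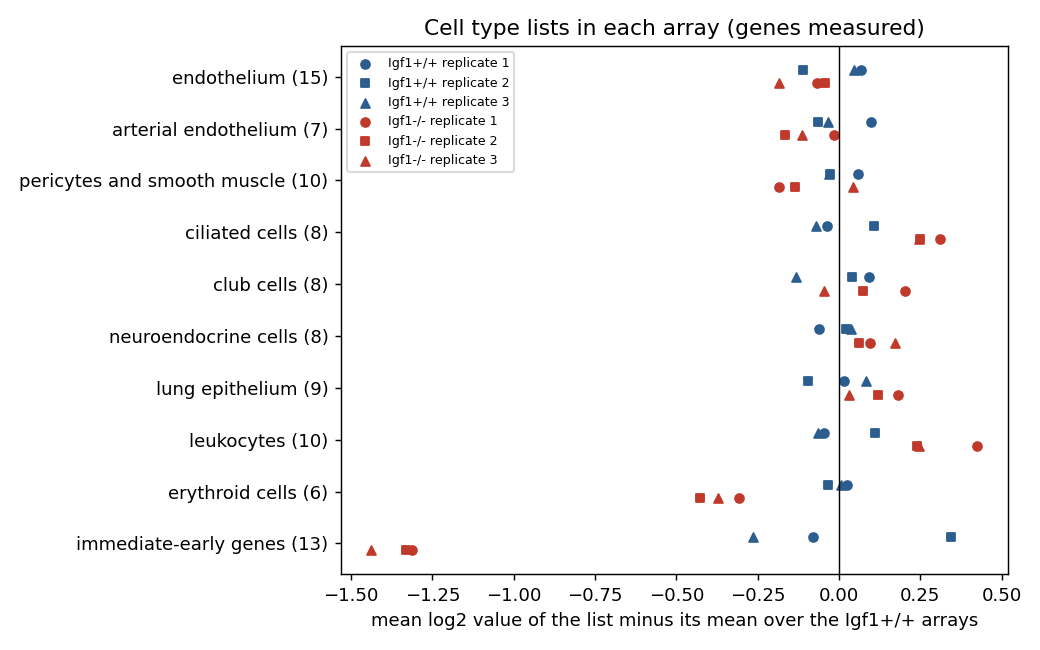
Mean log2 value over the genes of each list on each array, set against the average of the 3 Igf1+/+ arrays, with the number of genes measured in brackets. The ciliated, neuroendocrine and leukocyte means of the Igf1-/- arrays lie above those of all Igf1+/+ arrays, the erythroid and immediate-early means lie below, and the endothelial and smooth muscle means overlap. The neuroendocrine list includes Dlk1, a ligand gene far brighter than the rest of that list, which weighs on its mean.

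Markers of blood cells and genes of the early response to stimuli held further calls, where 0.557% of all probe sets rose or fell. These lists were chosen with earlier results of these data known. The study had already reported Fos, Nr4a1, Egr1, Jun, Dusp1, Zfp36, Btg2 and Atf3 as lower on these arrays. It also counts Slc4a1 among its differentially expressed genes. The counts below are therefore not independent of the choice of genes. Of 10 leukocyte genes 9 were higher and 1 lower, and Cd52, a lymphocyte surface protein, rose (0.47, adjusted p = 0.0665), while S100a8, a neutrophil calcium-binding protein (0.63, adjusted p = 0.110), and Coro1a, a leukocyte actin-binding protein (0.44, adjusted p = 0.160), did not pass. Of 6 erythroid genes 3 were higher and 3 lower, and Slc4a1, the band 3 anion exchanger (-1.64, adjusted p = 0.000146), and Alas2, the heme synthesis enzyme of erythroblasts (-0.87, adjusted p = 0.0754), fell, while Klf1, an erythroid transcription factor, was at 0.14, adjusted p = 0.578. Of 13 immediate-early genes, which respond within minutes to growth factors and other stimuli, 11 fell, with list means of 7.92 to 8.05 in Igf1-/- and 9.10 to 9.70 in Igf1+/+ lungs, and a median log2 fold change of -1.17. The 11 were Fos, Nr4a1, Egr1, Dusp1, Junb, Atf3, Ier3, Zfp36, Btg2, Jun and Ier2, from -3.32 for Fos to -0.59 for Ier2, and the largest after Fos were Nr4a1 (-2.62, adjusted p = 0.00179) and Egr1 (-2.39, adjusted p = 0.00964). Within the same arrays Hes1, which serum and growth factors also induce in cultured cells, was at 0.03. The study names the breathing of Igf1+/+ pups before dissection as a possible source of the immediate-early differences. It also points out that IGF1 induces many of these genes in other settings. Neither was tested here, nor was the part of these differences in the Notch pathway values.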

How the data were processed

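RNA of 6 whole-lung samples (3 Igf1-/- and 3 Igf1+/+, grouped by the genotype in the labels) was measured on Affymetrix arrays. The authors deposited log2 values per probe set, summarized by RMA together with 6 cochlear arrays (12 in all), so background and quantile scaling were shared with another tissue and were not redone here. The read-out has no counts, and the number of arrays limits its precision. Of 22690 probe sets, 64 controls were left out and 20380 carried 1 symbol in the platform annotation, 691 several and 1555 none.

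Probe sets were compared with limma 3.58.1 (lmFit and eBayes) in R 4.3.3, with Benjamini-Hochberg adjustment over 22626 probe sets. The study's methods used SAM, whose error rate rests on permuted samples, and limma was used in its place. All probe sets of the 10 genes are described; of other lists, genes with adjusted p under 0.10 at any probe set and the 3 largest differences at brightest probe sets are named, and further genes are named for their role. Members and lists were chosen with earlier results of these data known. Alternatives covered normalization, centring, filters, variance models, array weights, thresholds, the replicate block and each array left out.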

Additional observations from a re-analysis of the deposited data

How the results depend on the processing

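The count of 0 among the 17 Notch probe sets held under each alternative tried, including each array left out and adjusted p under 0.20. Over all probe sets, 126 became 204 with a variance trend and robust estimates, 628 with array weights and 1 without moderation, 54 at adjusted p under 0.05 and 588 at 0.20, and 45 to 710 with 1 array left out (710 without Igf1+/+ replicate 3, 45 to 63 with any other array left out). The deviations of same-numbered lungs from their group means correlated at -0.04, -0.23 and -0.14. With 3 lungs per genotype such deviations are tied to each other, so these values cannot decide whether the replicate numbers pair the lungs. With the replicate block 138 probe sets passed, with 1 further pathway probe set, the brightest of Heyl (adjusted p = 0.0912). The count of 0 in the further pathway became 3 with array weights (Heyl at 0.0781 and 0.0535, Neurl1a at 0.0598), 3 at adjusted p under 0.20, and 0 to 3 with 1 array left out (3 without Igf1+/+ replicate 3, Heyl at 0.0514 and 0.0589 and Neurl1a at 0.0779); the cause was not tested. Signs turned for Notch2 (1455556_at) with array weights (-0.085), and after quantile normalization for Jag1 (-0.039 and -0.055) and Dll4 (1421827_at, 0.0012). With 1 array left out, log2 fold changes crossed 0 for Notch1 1418634_at (-0.0036 to 0.14), Notch1 1418633_at (-0.022 to 0.12), Notch2 1455556_at (-0.13 to 0.10), Notch3 1421964_at (-0.048 to 0.22), Notch4 1456263_at (-0.0014 to 0.11), Jag1 1421106_at (-0.024 to 0.053), Jag1 1421105_at (-0.055 to 0.071), Jag2 1426430_at (-0.074 to 0.15), Dll1 1419204_at (-0.064 to 0.066), Dll4 1421827_at (-0.090 to 0.068), Dll4 1421826_at (-0.19 to 0.00044), Hes1 1418102_at (-0.12 to 0.16), Hey1 1415999_at (-0.057 to 0.13) and Dner 1456379_x_at (-0.11 to 0.010). With dim probe sets left out, 134 passed and the 5 dim Notch probe sets had no value. No probe set of Heyl and neither separated receptor probe set changed sign.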

Other observations

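At Id2, an inhibitor of helix-loop-helix factors in lung epithelial tips, the 3 probe sets lay on both sides of 0. The brightest was at 0.09 (SE 0.11, adjusted p = 0.759), the next at 0.25 (SE 0.07, adjusted p = 0.233) with all Igf1-/- lungs above all Igf1+/+ lungs, and the dimmest at -0.62 (SE 0.35, adjusted p = 0.491), where the values were 6.39, 7.03 and 6.04 in Igf1-/- lungs and 7.21, 7.77 and 6.35 in Igf1+/+ lungs. The SD between arrays of a genotype was 0.62 at that last probe set.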
